A study of Mus musculus with 12 samples.

Results

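Sox9, Krt19, Spp1 and Anxa13, 4 genes used as markers of bile duct epithelium and of liver progenitor cells, were measured by RNA sequencing in the mouse hepatocyte line AML12 after transfections that target DUSP6. The rows carrying these 4 gene names were taken from the authors' deposited tables, 1 for each of 2 contrasts; together the tables hold 2600 genes. The plasmid table lists 3 of the 4 among its 707 genes, and Anxa13 is absent from it. The siRNA table lists 3 of the 4 among its 2150 genes, and Krt19 is absent from it. Sox9 and Spp1 stand in both tables.

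Hepatocytes and the cholangiocytes that line bile ducts arise from a common embryonic precursor, the hepatoblast. Sox9 encodes a transcription factor that marks cholangiocytes, hepatoblasts that turn toward the biliary fate, and hepatocytes near the portal vein. Krt19 encodes a type I keratin of simple epithelia that cholangiocytes carry and mature hepatocytes lack. Spp1 encodes osteopontin, a secreted phosphoprotein that binds integrins and CD44, made in liver by biliary and progenitor cells among others. Anxa13 encodes a membrane-bound annexin, a calcium-dependent phospholipid-binding protein of epithelia. The DUSP6 protein dephosphorylates ERK, the last kinase of a cascade that growth factors switch on. AML12 comes from hepatocytes of mice that carry a transgene for human TGF alpha, a growth factor.

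The 12 libraries form 4 groups of 3, and all cells were transfected with lipo2000 and grew with serum, dexamethasone and the ITS supplement. A GFP plasmid (genotype label GFP overexpression) was set against a GFP-DUSP6 plasmid (GFP-DUSP6 overexpression) at 24 h. A control siRNA (NC, genotype label WT) was set against a DUSP6-specific siRNA (siDUSP6, DUSP6 knockdown) at 48 h, and no library serves in both contrasts. The labels do not tell whether replicates are separate cultures, so p-values measure library-to-library spread that could be technical.

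Each table lists only genes that the authors' DESeq2 test selected. The word called means an adjusted p under 0.05 as printed in the authors' deposited table. By that rule 4.61% of tested genes were called in the plasmid contrast (3.39% higher and 1.22% lower) and 15.0% in the siRNA contrast (7.76% higher and 7.19% lower). In an edgeR quasi-likelihood refit the shares were 4.20% (3.18% higher and 1.02% lower) and 12.3% (6.50% higher and 5.75% lower). The 4 markers were chosen with these results known, so their own counts are a description. Normalized counts are deposited counts divided by size factors recovered from the tables, which lay between 0.940 and 1.05. Listed genes summed to between 1303866 and 1531091 counts per library in the plasmid contrast and to between 3500977 and 4078892 in the siRNA contrast, sums that are not library depths. Log2 fold changes, their standard errors and the adjusted p-values of the refit use those size factors.

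The targeted gene Dusp6 was lower in the siDUSP6 libraries, at 1770, 1905 and 1771 counts against 4047, 3752 and 3888 in NC, a log2 fold change of -1.14 ± 0.06 (SE). It was also lower in the libraries labelled GFP-DUSP6, at 2445, 2537 and 2285 counts against 3216, 3112 and 3451 with GFP, a log2 fold change of -0.51 ± 0.06. This is opposite to what the plasmid label says, and whether plasmid transcripts entered the count was not tested. Below, higher and lower in the plasmid contrast refer to libraries by that label.

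Gene models were read from GENCODE M21 on GRCm38, the assembly that mm10 names. Sox9 (ENSMUSG00000000567) lies on chromosome 11 from 112782224 to 112787760, plus strand, and Krt19 (ENSMUSG00000020911) on chromosome 11 from 100140810 to 100148665, minus strand. Spp1 (ENSMUSG00000029304) lies on chromosome 5 from 104435118 to 104441050, plus strand, and Anxa13 (ENSMUSG00000055114) on chromosome 15 from 58341471 to 58389244, minus strand. Of the 50-base words of their transcripts, 0% were shared with other genes for Sox9, Krt19 and Anxa13. For Spp1 the share was 11.6%, all with Gm42793, a gene model of class TEC on the same strand that overlaps a Spp1 exon, so some Spp1 reads could have been assigned to either.

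Of the 4 markers, Spp1 was the 1 matched in the RefSeq promoter table used (GRCm38.p6), and its promoter is shown as that of a marker called in both contrasts. The window lies at chr5:104434861-104435160, plus strand, from 250 bases before to 50 bases after the annotated start, with 45.3% G or C and 3 CpG. Capitals mark matches to searched motifs.
Spp1 promoter: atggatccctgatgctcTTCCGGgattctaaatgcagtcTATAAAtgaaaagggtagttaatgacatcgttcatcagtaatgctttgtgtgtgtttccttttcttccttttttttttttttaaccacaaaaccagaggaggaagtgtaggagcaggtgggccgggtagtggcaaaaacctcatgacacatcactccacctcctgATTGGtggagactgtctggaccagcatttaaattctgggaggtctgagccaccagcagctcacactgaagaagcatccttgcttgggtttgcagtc
Both strands were searched for 7 motifs, namely TATAAA of the TATA box, TGANTCA of AP-1, CATTCC of TEAD factors, TTCCCAC of RBPJ, CCGGAA of ETS factors, GGGCGG of the GC box and CCAAT of the CCAAT box. The letters CCGGAA matched on the opposite strand at position -233, TATAAA on the printed strand at -211 and CCAAT on the opposite strand at -46, counted from the start site and giving the leftmost base of each match, and no match overlapped another. Among 32851 promoter windows of the same 300-base length, 14.9% held CCGGAA, 13.6% TATAAA and 37.4% CCAAT. No match was found for the other motifs, which stood in 7.81% (AP-1), 14.7% (TEAD), 6.38% (RBPJ) and 35.7% (GC box) of the windows. A second annotated Spp1 window, starting at 104435942, held none of the 7. A match describes letters only and says nothing of binding.

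In the libraries labelled GFP-DUSP6, the transcription factor gene and the keratin gene were lower and osteopontin was higher. Sox9 had 741, 774 and 880 counts with GFP and 628, 631 and 619 with the GFP-DUSP6 label. Every library of the second group lay below every GFP library, and the 3 were close to each other. Normalized counts went from 820 ± 52.5 to 608 ± 14.3 (SD, n = 3 each), and so fell by 25.8%, a log2 fold change of -0.43 ± 0.08 (SE). The adjusted p was 0.000573 in the authors' deposited table and 0.00482 in the edgeR refit.

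Krt19 was the second most abundant of the 707 listed genes by normalized count. It had 35124, 36770 and 38154 counts with GFP and 28985, 30415 and 29516 in the libraries labelled GFP-DUSP6. Every library with the GFP-DUSP6 label lay below every GFP library. Normalized counts went from 37744 ± 1396 to 28797 ± 254 (SD, n = 3 each), with a log2 fold change of -0.39 ± 0.05 (SE) and an adjusted p of 1.96e-12 in the authors' deposited table and 0.000385 in the edgeR refit. By p-value Krt19 ranked 26 of the 707 rows, ahead of Spp1 at 54 and Sox9 at 200.

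Spp1 moved the other way. It had 1546, 1199 and 1480 counts with GFP and 2263, 2144 and 2236 in the libraries labelled GFP-DUSP6. GFP replicate 2 was the lowest of the 6, and the groups did not overlap. Normalized counts went from 1447 ± 163 to 2153 ± 103 (SD, n = 3 each), 1.49-fold, a log2 fold change of 0.57 ± 0.08 (SE), with an adjusted p of 6.83e-09 in the authors' deposited table and 0.000391 in the edgeR refit. Scaling over the listed genes shifted all fold changes in this contrast by a median of -0.30 (TMM) or -0.32 (median of ratios) on the log2 scale. The rise of Spp1 then stood at 0.28 and 0.25 with an edgeR adjusted p of 0.117 and 0.287, while the falls of Sox9 and Krt19 were larger. Of the 707 listed rows 97.6% had groups that did not overlap, so this separation is no distinction of the 3 genes.

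**Figure D1:**
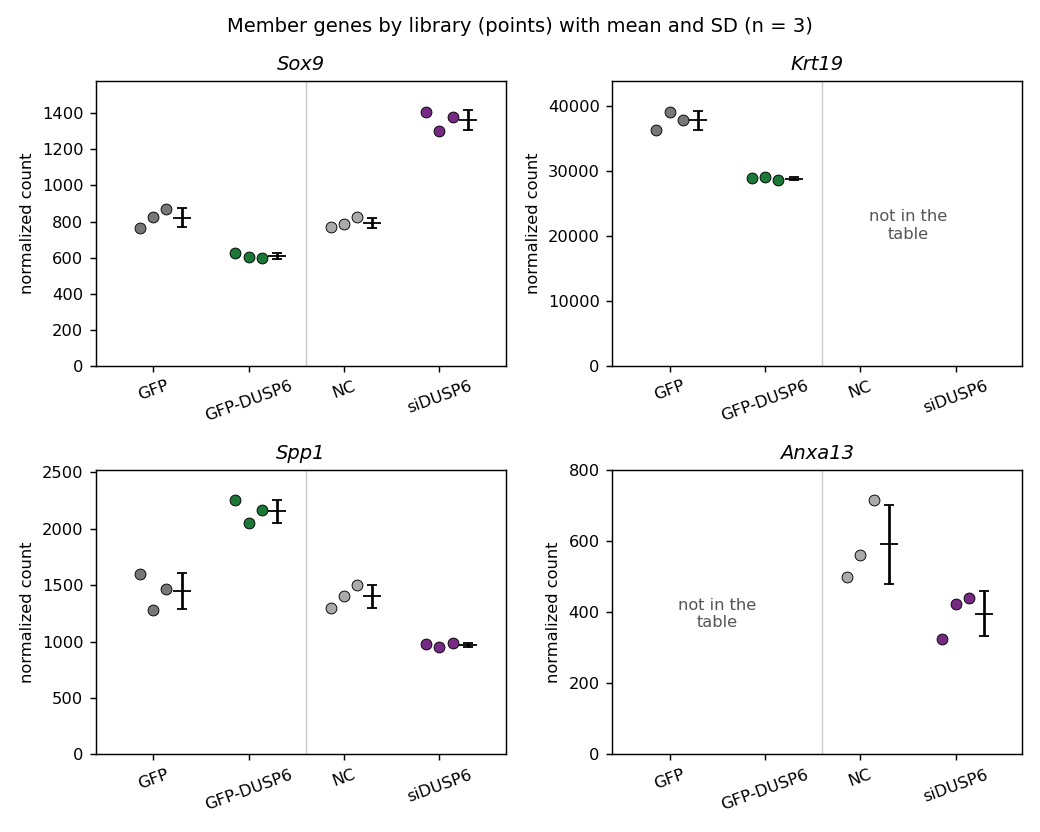
Normalized counts of Sox9, Krt19, Spp1 and Anxa13 in each library (points, replicates 1 to 3 from left to right) with the mean and SD of each group (n = 3). Sox9 was lowest with GFP-DUSP6 and highest with siDUSP6, and Spp1 had the opposite order; Krt19 is absent from the siRNA table and Anxa13 from the plasmid table.

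In the siDUSP6 libraries Sox9 was higher and Spp1 and Anxa13 were lower. Sox9 had 769, 747 and 842 counts in NC and 1433, 1354 and 1376 with siDUSP6. The lowest siDUSP6 library was well above the highest NC library. Normalized counts went from 793 ± 26.8 to 1364 ± 55.3 (SD, n = 3 each), 1.72-fold, a log2 fold change of 0.78 ± 0.08 (SE). The adjusted p was 5.24e-17 in the authors' deposited table, rank 107 by p among 2150 rows, and 6.21e-05 in the edgeR refit.

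Spp1 had 1292, 1338 and 1534 counts in NC and 994, 987 and 985 with siDUSP6. The 3 siDUSP6 libraries were almost alike and lay below all NC libraries. Normalized counts went from 1401 ± 102 to 972 ± 19.6 (SD, n = 3 each), and so fell by 30.6%, a log2 fold change of -0.53 ± 0.08 (SE), with an adjusted p of 2.45e-07 in the authors' deposited table and 0.00160 in the edgeR refit.

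The log2 fold change of Anxa13 had a larger standard error than those of the other markers. It had 496, 533 and 731 counts in NC and 330, 440 and 439 with siDUSP6. NC replicate 3 was the highest and siDUSP6 replicate 1 the lowest, and the groups did not overlap, as in 98.2% of listed rows. Normalized counts went from 591 ± 112 to 396 ± 62.3 (SD, n = 3 each), with a log2 fold change of -0.58 ± 0.15 (SE) and an adjusted p of 0.00442 in the authors' deposited table and 0.0306 in the edgeR refit. That refit did not pass without NC replicate 2 (-0.61, adjusted p = 0.0704), NC replicate 3 (-0.42, 0.0980), siDUSP6 replicate 1 (-0.45, 0.0902) or siDUSP6 replicate 2 (-0.63, 0.0701). The annotation classes this Anxa13 gene as a processed transcript, that is, without a coding sequence in this release. In bulk RNA, fewer cells of a type and less RNA per cell cannot be told apart, here or for the other markers.

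Krt19 is absent from the siRNA table and Anxa13 from the plasmid table. The counts of these genes in those libraries are not analysed here.

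Levels between genes were compared as normalized counts per kilobase of exon. With GFP, Krt19 stood at 20347 ± 753, Spp1 at 878 ± 98.6 and Sox9 at 198 ± 12.7 (SD, n = 3), so the keratin was by far the most abundant of the 3. In NC, Spp1 stood at 850.0 ± 61.9, Anxa13 at 438 ± 82.9 and Sox9 at 192 ± 6.48. The order Spp1, Anxa13, Sox9 had no overlap between neighbours in NC. With siDUSP6 the order changed, as Sox9 at 330 ± 13.4 per kilobase reached the level of Anxa13 at 294 ± 46.2, where the mean levels differed by less than the SD of Anxa13, while Spp1 was at 590 ± 11.9.

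Sox9 and Spp1 thus had mirrored orders over the 4 groups. Sox9 was at 608 normalized counts with GFP-DUSP6, 793 in NC, 820 with GFP and 1364 with siDUSP6. Spp1 was at 972 with siDUSP6, 1401 in NC, 1447 with GFP and 2153 with GFP-DUSP6. The tables were normalized separately, so levels across them carry no test; the NC and GFP libraries overlapped for each gene. The difference between the fold changes of the contrasts was tested over all 12 libraries on the genes listed in both tables. For Sox9 the plasmid minus the siRNA log2 fold change was -1.21 ± 0.10 (SE) and for Spp1 it was 1.10 ± 0.12, with edgeR quasi-likelihood adjusted p of 1.48e-05 and 9.59e-05. With scaling over the listed genes the difference for Spp1 was 0.72 (TMM) and 0.58 (median of ratios), and that for Sox9 -1.59 and -1.74. Of the 255 genes tested 80.8% passed this test, so a difference between the contrasts is the rule among genes listed in both. Sox9 and Spp1 entered the test already called in opposite directions, so it adds no separate support. Dusp6 itself was lower in both contrasts.

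Ratios of raw counts within a library do not depend on how libraries are scaled. They were added after the values were seen. Spp1 to Sox9 was 2.09, 1.55 and 1.68 in the GFP libraries and 3.60, 3.40 and 3.61 in those labelled GFP-DUSP6. In NC the ratio was 1.68, 1.79 and 1.82, and with siDUSP6 0.694, 0.729 and 0.716. The 2 control groups had nearly the same mean, 1.77 ± 0.28 with GFP and 1.76 ± 0.07 in NC. From there the ratio was 2.00-fold with GFP-DUSP6, at 3.54 ± 0.12, and 0.404-fold with siDUSP6, at 0.713 ± 0.02 (SD, n = 3 each). The exact permutation test (two-sided) gave p = 0.1 for each, the smallest that 3 against 3 allows, and 0.15 adjusted over the 6 ratios tested.

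For the other ratios too, no p under 0.1 was possible, so a high p does not show that a ratio was stable. Krt19 to Sox9 was 46.1 ± 2.37 with GFP and 47.3 ± 1.06 with the GFP-DUSP6 label, with overlapping libraries (exact permutation p = 0.5, adjusted 0.6). The log2 change of this ratio was 0.04, and a difference was not detectable with 3 libraries a group. Krt19 to Spp1 went from 26.4 ± 4.01 to 13.4 ± 0.71, without overlap (exact permutation p = 0.1). In the siRNA contrast Spp1 to Anxa13 was 2.40 ± 0.27 in NC and 2.50 ± 0.44 with siDUSP6, with overlap (exact permutation p = 0.8). Anxa13 to Sox9 went from 0.742 ± 0.11 to 0.291 ± 0.05, without overlap (exact permutation p = 0.1).

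**Figure D2:**
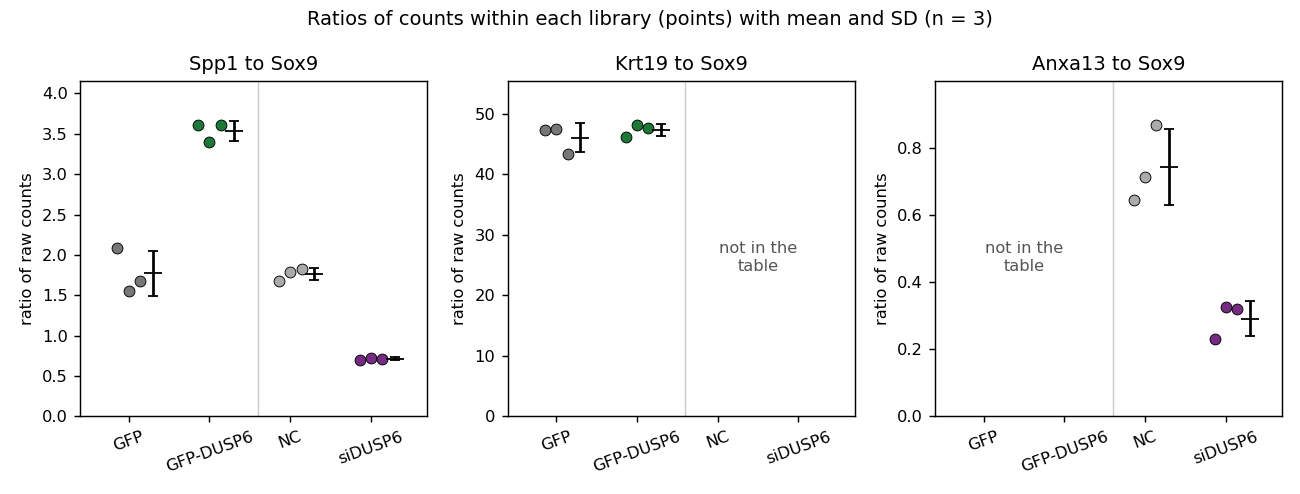
Ratios of raw counts within each library (points) with the mean and SD of each group (n = 3), for Spp1, Krt19 and Anxa13 over Sox9. The Spp1 to Sox9 ratio was near 1.77 in both control groups, 3.54 with GFP-DUSP6 and 0.713 with siDUSP6, and Krt19 to Sox9 stayed between 43.4 and 48.2 in all 6 plasmid libraries.

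**Figure D3:**
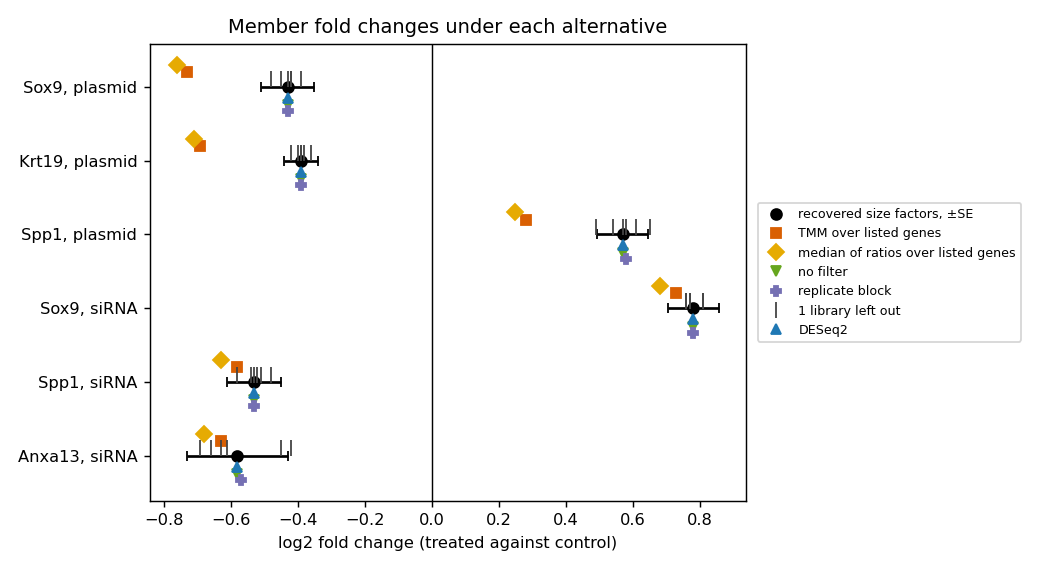
Log2 fold change of each marker in each table that lists it, from the edgeR refit (black, with SE) and under each alternative; vertical ticks are fits with 1 library left out. All 6 fold changes stayed on their side of 0, and scaling over the listed genes moved Spp1 in the plasmid contrast closest to it, to 0.25.

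Listed genes were then ranked by how closely their log2 normalized counts, taken relative to the control mean, followed each marker (root mean square difference, at least 50 normalized counts). This measure describes likeness in these libraries only. In the plasmid contrast (6 libraries, 563 genes), the gene nearest to Sox9 was Krt19 at 0.0548, before Acsbg1 at 0.0589 and Zfp697 at 0.0601. Nearest to Krt19 was another type I keratin gene, Krt20, at 0.0330, then Limk1 at 0.0346 and Ppp1r15a at 0.0378. Nearest to Spp1 were Sema3c at 0.0549, Zc3h12c at 0.0561 and Spc25 at 0.0595. In the siRNA contrast (6 libraries, 1851 genes), Sox9 was followed most closely by Tnfrsf23 at 0.0429, Rhpn2 at 0.0461 and ENSMUSG00000121404 at 0.0511. For Spp1 these were Vgll4 at 0.0392, Cbx6 at 0.0470 and Klf15 at 0.0507, and for Anxa13 they were Mpzl2 at 0.0709, Porcn at 0.0765 and Loxl2 at 0.0779. Over all 12 libraries and 241 genes in both tables, Acsbg1 at 0.108, Morrbid at 0.120 and Fat2 at 0.120 were nearest to Sox9. Nearest to Spp1 were Osbpl1a at 0.104, Itgb6 at 0.107 and Rrm1 at 0.117; Itgb6 encodes a subunit of an integrin that binds osteopontin.

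Other biliary epithelial markers divided in the siDUSP6 libraries. Of 25 such genes 3 were called higher and 6 lower, where 7.76% and 7.19% of all tested genes were. The median log2 fold change of these 9 was -0.35, against 0.23 over all called genes, both in the authors' deposited table. Itgb4, an integrin subunit of epithelial anchoring junctions, rose from 1027, 1175 and 1332 counts to 2399, 2668 and 2595, a log2 fold change of 1.08 ± 0.09 (SE). Cldn4, a tight junction gene, was near absent in NC at 2, 1 and 8 counts and had 46, 53 and 46 with siDUSP6, so its log2 fold change of 3.64 ± 0.46 is imprecise. The anion exchanger gene Slc4a2 was called higher at 0.35 ± 0.11, but it did not pass the edgeR refit (adjusted p = 0.0507).

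The 6 lower biliary genes were Aqp1, Bicc1, Ggt1, Onecut2, Pkhd1 and Tspan8. The water channel gene Aqp1 fell from 116, 152 and 173 counts to 15, 26 and 36, a log2 fold change of -2.55 ± 0.28 (SE). Bicc1, an RNA-binding protein gene, had -1.48 ± 0.22, Ggt1 -1.43 ± 0.27 and Onecut2, a transcription factor gene of liver development, -0.66 ± 0.11. Pkhd1, which encodes fibrocystin of bile duct cilia, had -0.34 ± 0.08 and Tspan8 -0.32 ± 0.08. When 1 library was left out of the edgeR refit, 2 to 3 genes were higher and 4 to 6 lower; the lower count was 4 without siDUSP6 replicate 1, 2 or 3, and the calls that were then lost belonged to Pkhd1 and Tspan8. In the plasmid contrast 1 of the 25 was called, against 4.61% of all tested genes: Tspan8, higher at 0.31 ± 0.07. That call did not pass the edgeR refit without GFP replicate 3 or any one GFP-DUSP6 replicate (0 genes), nor with scaling over the listed genes (0 genes), where the median of ratios put it at -0.02. Cldn7 is listed there without an adjusted p, at 9, 1 and 3 counts with GFP and 0 in each library labelled GFP-DUSP6.

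Krt20 was called in both contrasts, in opposite directions. Of 6 other keratin genes of simple epithelia, it was the 1 called in the plasmid contrast, where 4.61% of all tested genes were called. It was lower there at -0.35 ± 0.05 (log2, SE), from 11657, 11748 and 12630 counts to 9726, 10337 and 9818. In the siDUSP6 libraries Krt20 was higher, at 17826, 18215 and 17670 counts against 13108, 13303 and 14889 in NC, a log2 fold change of 0.34 ± 0.06. Krt80 at 0.45 ± 0.07, Krt8 at 0.35 ± 0.10 and Krt18 at 0.24 ± 0.07 were called higher too, 4 of 6 in all and 0 lower. The shares over all tested genes were 7.76% higher and 7.19% lower. Krt8 and Krt18, the keratin pair of hepatocytes themselves, had edgeR adjusted p of 0.0496 and 0.0412. They did not pass without NC replicate 1, NC replicate 2, siDUSP6 replicate 2 or siDUSP6 replicate 3 (2 genes remain), and Krt18 also not without siDUSP6 replicate 1. They did not pass with scaling over the listed genes either (TMM, 0.0932 and 0.0881).

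Among 10 genes for osteopontin receptors, integrin subunits and CD44, 2 were called in the plasmid contrast, both higher. Of all tested genes 3.39% were called higher there and 1.22% lower. Itgb3 rose from 409, 421 and 444 counts to 807, 885 and 746, a log2 fold change of 0.85 ± 0.09 (SE), and Itgb6 from 599, 498 and 528 to 827, 851 and 841, at 0.55 ± 0.09. Both calls held in the edgeR refit without any single library; with TMM over the listed genes Itgb6 had an adjusted p of 0.417. In the siRNA contrast 3 were called higher and 3 lower, where 7.76% and 7.19% of all tested genes were. The lower genes were Itgb6 (-0.63 ± 0.09), Itgb3 (-0.53 ± 0.15) and Itgb5 (-0.30 ± 0.09), and the higher ones Cd44 (0.37 ± 0.09), Itga5 (0.34 ± 0.07) and Itgb1 (0.19 ± 0.06). In the edgeR refit 2 were higher and 2 lower, since Itgb5 and Itgb1 did not pass (adjusted p = 0.0533 and 0.0766). Itgb6 passed without every single library. Itgb3 did not pass without NC replicate 3 or any one siDUSP6 replicate (1 gene lower), and Cd44 did not pass without NC replicate 2, siDUSP6 replicate 1 (1 gene higher each) or siDUSP6 replicate 2 (0 genes higher), nor with median of ratios (edgeR adjusted p = 0.119).

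Progenitor and fetal liver markers showed no common direction. Of 18 genes, Id3 was called higher in the plasmid contrast (0.46 ± 0.10) and Tnfrsf12a (-0.23 ± 0.06) and Sox4 (-0.20 ± 0.06) lower. The shares over all tested genes were 3.39% higher and 1.22% lower. Sox4 did not pass the edgeR refit (adjusted p = 0.0765). It did with scaling over the listed genes, at -0.50 (TMM) and -0.53 (median of ratios), with an edgeR adjusted p of 3.20e-05 and 5.32e-05. Scaled over listed genes, Id3 stood at 0.16 (TMM) and 0.13 (median of ratios) and did not pass. Without GFP replicate 3 or GFP-DUSP6 replicate 3, 0 of these genes passed, and Tnfrsf12a did not pass without GFP-DUSP6 replicate 1 or 2 either. Without GFP replicate 2, 2 were lower. With siDUSP6, Tnfrsf12a, the receptor of the cytokine TWEAK that acts on progenitor cells, was higher at 0.39 ± 0.06, as was Cd44. Lin28b (-1.63 ± 0.42), Id3 (-0.57 ± 0.15) and Ncam1 (-0.30 ± 0.07) were lower. All tested genes were called higher at 7.76% and lower at 7.19% in this contrast. Without siDUSP6 replicate 2, 1 gene was higher, Tnfrsf12a, and 0 were lower. The higher count was also 1 without NC replicate 2 or siDUSP6 replicate 1, and the lower count was 1 without NC replicate 2 or siDUSP6 replicate 3. Lin28b had between 6 and 24 counts per library.

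Genes of pathways that act on the biliary fate were counted in 2 lists of 20. Among all tested genes, 4.61% (plasmid) and 15.0% (siRNA) were called. Whether the list counts differ from these shares was not tested. Of 20 Notch pathway genes 0 are in the plasmid table, by the authors' DESeq2 test and thus in the refit; a count at unadjusted p needs genes that are not listed. In the siRNA contrast 1 was called, Notch4, higher at 0.46 ± 0.12, and not in the edgeR refit without NC replicate 1, NC replicate 2, siDUSP6 replicate 2 or siDUSP6 replicate 3 (0 genes), nor scaled over listed genes (adjusted p = 0.0527 with TMM and 0.0947 with median of ratios). Of 20 Hippo pathway genes and TEAD targets, Ccn2 was lower (-0.36 ± 0.06) and Axl higher (0.24 ± 0.05) in the plasmid contrast, the latter not without GFP replicate 3, GFP-DUSP6 replicate 2 or GFP-DUSP6 replicate 3, and at -0.06 (TMM) or -0.09 (median of ratios) with scaling over the listed genes. With siDUSP6, 5 were lower, Nuak2 (-0.74 ± 0.11), Amotl2 (-0.71 ± 0.06), Tead3 (-0.52 ± 0.14), Ccn1 (-0.33 ± 0.08) and Ajuba (-0.21 ± 0.07), and Axl was higher (0.41 ± 0.06). Ajuba did not pass the edgeR refit (adjusted p = 0.0694), and without NC replicate 3 or siDUSP6 replicate 3 the genes that were lower were 2, Nuak2 and Amotl2.

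Relatives of 2 markers were examined as well. Of the 11 other annexin genes 4 were called higher with siDUSP6, where 7.76% of all tested genes were, against the fall of Anxa13. They were Anxa11 (0.59 ± 0.10), Anxa7 (0.53 ± 0.06), Anxa2 (0.24 ± 0.08) and Anxa1 (0.18 ± 0.06). Anxa2 and Anxa1 did not pass the edgeR refit (adjusted p = 0.0695 and 0.0944). In the plasmid contrast Anxa8 was called higher (0.27 ± 0.08) and Anxa2 lower (-0.16 ± 0.05), where 3.39% and 1.22% of all tested genes were. Neither passed the edgeR refit (adjusted p = 0.0661 and 0.136), though 1 gene was higher without GFP replicate 2. Scaled over listed genes, Anxa8 stood at -0.02 (TMM) and -0.05 (median of ratios). Anxa2 then stood at -0.46 and -0.48 and passed (edgeR adjusted p = 2.61e-05 and 2.76e-05). Of 13 other Sox genes 2 were called with siDUSP6, against 15.0% of all tested genes. These were Sox11 (-0.62 ± 0.10) and Sox5 (-0.63 ± 0.15), both lower, where Sox9 rose. Sox5 did not pass without NC replicate 3, siDUSP6 replicate 2 or siDUSP6 replicate 3 (1 gene). In the plasmid contrast 1 of the 13 was called, against 4.61% of all tested genes: Sox4, lower as given above.

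Genes of hepatocyte identity, 28 in all, were counted too. Only genes selected as changed are listed, 9 of these in the siRNA contrast and 1 in the plasmid contrast. The list therefore cannot check the labelled cell type. In the siRNA table Alb, the albumin gene, had 610, 597 and 800 counts in NC and 130, 209 and 183 with siDUSP6, a log2 fold change of -1.98 ± 0.16 (SE). Per kilobase of exon it stood at 288 ± 40.1 in NC, between Sox9 and Anxa13, and Krt18 at 21831 ± 1522 (SD, n = 3). In all 9 genes of this list were called lower and 0 higher with siDUSP6: Alb, Ttr, Apoa1, Serpina1b, Ppara, Nr1h4, Foxa2, Trf and Hnf4a. The shares over all tested genes were 7.19% lower and 7.76% higher. Serpina1b had between 17 and 54 counts per library and Apoa1 between 22 and 165. Without siDUSP6 replicate 2 in the refit, 6 genes of the list were lower. In the plasmid contrast 1 was called, against 4.61% of all tested genes: Apob, higher at 0.33 ± 0.09. It did not pass the edgeR refit without GFP replicate 2, GFP replicate 3 or any one GFP-DUSP6 replicate (0 genes). Scaled over listed genes it did not pass either, at 0.04 (TMM) and 0.01 (median of ratios). The hepatocyte genes that fell thus moved with Spp1 and Anxa13, and their part in those results was not tested.

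Markers of other liver cells were counted as well. Of 34 genes for stellate cells, endothelium and leukocytes, 2 were called in the plasmid contrast, against 4.61% of all tested genes. These were Stab1 (1.11 ± 0.13) and Cd14 (0.51 ± 0.06), both higher. In the siRNA contrast 1 was called, Cd14, lower (-0.48 ± 0.09), against 15.0% of all tested genes. Scaled over listed genes, Cd14 stood at 0.21 (TMM) and 0.19 (median of ratios) in the plasmid contrast and did not pass (edgeR adjusted p = 0.117 and 0.325), while Stab1 passed. No stellate cell gene was in either table. Stab1 went from 124, 105 and 142 counts to 272, 296 and 282. Cd14 was the 1 listed of 12 macrophage and leukocyte markers in each contrast. The sign of its fold change was that of Spp1 in each contrast. Opposite directions were common, at 73.2% of the 250 genes called in both. A part of Cd14 in the Spp1 result was not tested.

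Of the markers and list genes 11 were called in both contrasts, and 10 of these moved in opposite directions (90.9%), against 73.2% of all 250 genes called in both. Besides Sox9 and Spp1, they were Tspan8, Id3, Itgb3, Itgb6 and Cd14, higher in the libraries labelled GFP-DUSP6 and lower with siDUSP6, and Tnfrsf12a, Krt20 and Anxa2, with the reverse. Axl was higher in both. In the plasmid contrast, scaling over listed genes put Axl below 0 and Tspan8 at 0.01 (TMM) and -0.02 (median of ratios), and Spp1, Id3, Itgb6 and Cd14 did not pass there. The lists were chosen with results of these data known, so this share is a description.

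**Figure D4:**
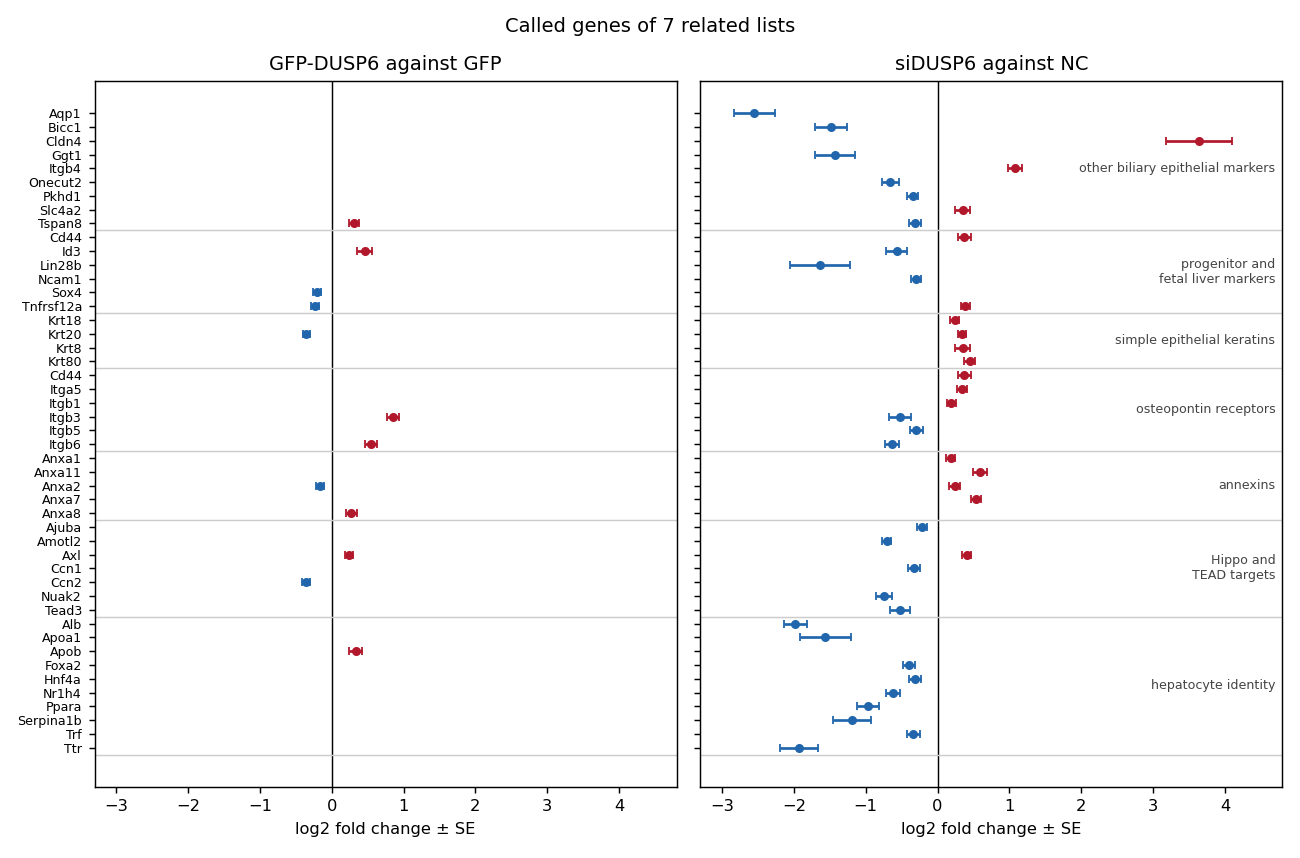
Log2 fold change with SE (edgeR refit) of the called genes of 7 related gene lists, plasmid contrast on the left and siRNA contrast on the right; red is higher and blue lower than the control, and an empty place means that the gene was not called. With siDUSP6 all 4 called keratins were higher, all 9 called hepatocyte genes were lower, and the biliary markers divided into 3 higher and 6 lower. Among all tested genes 7.76% were called higher and 7.19% lower with siDUSP6.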

How the data were processed

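Per the file headers, the authors deposited whole-number counts per gene for 12 libraries of AML12 cells, together with p-values (raw and adjusted) and log2 fold changes. For the siRNA contrast the deposited columns include a mean normalized signal and a linear fold (ratio). Per the submitters' processing notes the build is mm10 and the tool DESeq2; aligner, counter, strand setting, annotation and versions: not given in the sources used here. The tables hold genes with an adjusted p under 0.05 and 127 and 191 genes without an adjusted p.

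The numbers of tested genes (12592 and 13102) were derived from p, rank and adjusted p (505 and 1645 rows within 0.01 of the whole number). Size factors came from the deposited mean signal (siRNA) or from the fold changes of 489 genes with over 200 counts in every library (plasmid; largest error 0.00065 on the log2 scale). The edgeR quasi-likelihood refit (edgeR 4.0.16, R 4.3.3) used filterByExpr with a minimum count of 10, and p was adjusted by Benjamini-Hochberg over those numbers of genes. Its dispersion rests on genes selected as changed. The refit was tested on simulated data. The difference between contrasts was fitted over 4 groups and adjusted over 12592 genes.

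The members, the 12 gene lists and the tests were chosen with earlier results of these data known. Named genes are Dusp6, the 4 markers, every called list gene and the 3 genes nearest to each marker (pseudocount 1). No replicates were alike within sampling noise (chi-square over degrees of freedom, 3.89 to 25.7). Alternatives were other scaling, DESeq2 1.42.0, no filter, a replicate block and leaving out each library.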

Additional observations from a re-analysis of the deposited data

How the results depend on the processing

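Under scaling over the listed genes, no filter, DESeq2, the replicate block and each left-out library, the 6 fold changes of the markers kept their direction. The differences between contrasts for Sox9 and Spp1 did so under the same settings except no filter and DESeq2, which were not run for them. Scaled over the listed genes, the Spp1 difference was smaller, at 0.72 (TMM) and 0.58 (median of ratios), with an edgeR adjusted p of 0.00506 and 0.0353. That of Sox9 was larger, at -1.59 and -1.74. Spp1 in the plasmid contrast did not pass with TMM (0.28) or median of ratios (0.25) over the listed genes, scalings that take selected and mostly higher genes as unchanged. With 1 library left out, the edgeR log2 fold change ranged from -0.48 to -0.39 for Sox9, from -0.42 to -0.36 for Krt19 and from 0.49 to 0.65 for Spp1 in the plasmid contrast. The adjusted p of Sox9 there reached 0.0499. In the siRNA contrast it ranged from 0.76 to 0.81 for Sox9, from -0.58 to -0.48 for Spp1 and from -0.69 to -0.42 for Anxa13, which did not pass in 4 of 6 cases and for which the cause was not tested. The log2 change of the Spp1 to Sox9 ratio ranged from 0.92 to 1.13 and from -1.34 to -1.28. The count of other biliary markers called higher in the plasmid contrast was 1, 0 with TMM, 0 with median of ratios, and from 0 to 1 with a library left out. Same-numbered libraries correlated in their deviations at 0.348, 0.366 and 0.0115 (plasmid) and at 0.374, 0.0943 and 0.180 (siRNA). These values do not settle whether the numbers pair libraries, and the main fit did not pair them. With the replicate block the log2 fold changes were -0.43 (Sox9), -0.39 (Krt19) and 0.58 (Spp1), and 0.78 (Sox9), -0.53 (Spp1) and -0.57 (Anxa13), the differences between contrasts -1.21 (Sox9) and 1.10 (Spp1), and 585 and 1967 genes passed against 529 and 1606. Libraries that did not correlate best with their own number were GFP-DUSP6 replicate 3, NC replicate 2 and siDUSP6 replicate 2. Counts of all calls differed by scaling: 210 (TMM) and 197 (median of ratios) passed in the plasmid contrast. Unlisted genes and library depth limit what can be said of the absent markers.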
